A study of Bos taurus with 6 samples.

Results

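Cholesterol is made from acetyl-CoA by a long chain of enzymes, and 7 of these enzymes are described here across the testes of calves and bulls. They are HMGCS1, IDI1, FDPS, SQLE, LSS, CYP51A1 and DHCR7, taken by gene name from a deposited table of 47249 genes, where each of the 7 names was found once. The genes had been grouped under cholesterol synthesis and uptake, but each of the 7 encodes an enzyme of synthesis, so the uptake genes are given from a separate list. RNA was measured by sequencing in 6 libraries of testis tissue from untreated Wandong cattle (Bos taurus), 1 library per animal. The calf libraries, calf 1 to calf 3, came from immature males aged 3 months, and the bull libraries, bull 1 to bull 3, from mature males aged 3 years. The values are FPKM, fragments scaled by transcript length and by the fragments mapped in the library, so levels of different genes can be set side by side on this scale. Counts were not given, so the number of fragments behind a single value is unknown. Gene positions are printed as the deposited tables give them, and they match the ARS-UCD build of cattle.

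The first enzymes of the pathway build mevalonate and turn it into isoprenoid units, which are joined to farnesyl diphosphate, a branch point that also feeds protein prenylation, ubiquinone and dolichol. From squalene onward the steps are committed to sterols: squalene is oxidised, folded into lanosterol and trimmed to cholesterol. When membrane sterol is low, the transcription factor SREBP2 raises most of these genes together. In the testis, cholesterol is the starting material of androgens in Leydig cells and a main lipid of sperm membranes, and the sterols made by CYP51A1 and by the reductases of the next step are known as meiosis-activating sterols.

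The library labelled calf 3 stood apart in marker genes outside the 7, and was known from an earlier analysis of these data to do so. The summed FPKM of 9 oligodendrocyte markers reached 13770 in calf 3 and 29.6 to 104 elsewhere, and each of the 9 was highest in calf 3. The 7 astrocyte markers summed to 2953 in calf 3 against 82.2 to 169 elsewhere, and the 7 neuron markers to 829 against 4.51 to 15.8, again with each marker highest in calf 3. The 6 Leydig cell markers summed to 0.502 in calf 3, with 2 at 0, against 1113 to 2602 in the other libraries. The 9 Sertoli cell markers summed to 445 in calf 3, with WT1, GATA4 and FSHR listed at 0, to 1492 and 1798 in calves 2 and 1, and to between 189 and 226 in the bulls. CLDN11 was in both the Sertoli and the oligodendrocyte list. Calf 3 was the lowest of all libraries for 7 of the 9 Sertoli markers and the highest for 1. The markers of spermatids, cells that form only after puberty, 12 genes, summed to between 14899 and 16480 in the bulls and to between 10.6 and 16.6 in the calves. Because the values of calf 3 put its label as testis in doubt, fold changes are given both with all 6 libraries and without calf 3.

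With all 6 libraries, 1 of the 7 enzymes passed the test, FDPS, which was higher in the bulls. Without calf 3, FDPS, CYP51A1 and SQLE were higher in the bulls, while the other 4, HMGCS1, IDI1, LSS and DHCR7, did not pass. To be called, a gene needed an adjusted p under 0.05 and a log2 fold change no smaller than 1 in either direction, from limma on log2(FPKM + 1) over the 18115 genes that reached an FPKM of 1 in 3 or more libraries. By that rule 35.7% of all genes tested were called higher in bulls and 9.61% lower, and without calf 3 these shares were 37.9% and 13.6%, the background against which the counts of 1 and 3 among 7 are to be read. The median log2 fold change of the 7 was -0.07, against 0.43 over all genes tested, and without calf 3 it was 1.09 against 0.43. Quantile normalisation moved the median of all genes to -0.26, and the share of called genes that were higher in bulls from 78.8% to 45.8%, with 21.1% of genes called higher, 25.1% called lower and FDPS still the one enzyme called. In bulk tissue, fewer cells of a type and less RNA per cell cannot be told apart.

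**Figure D1:**
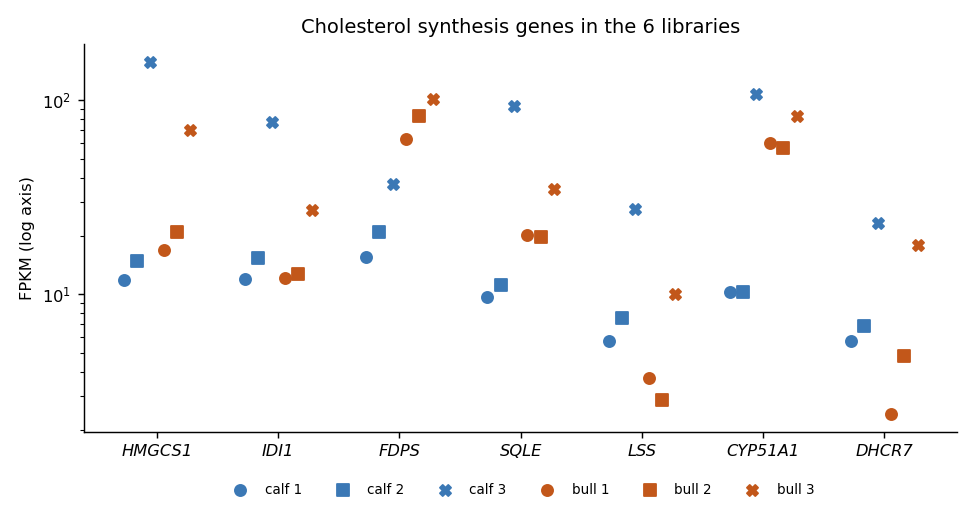
FPKM (log axis) of the 7 enzymes in each library, with calves in blue, bulls in orange and 1 point per animal. Calf 3 lies above the other calves for all 7 genes and above every other library for 6 of them, while bull 3 is the highest bull for all 7.

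HMGCS1 condenses acetyl-CoA with acetoacetyl-CoA into HMG-CoA, a precursor of mevalonate. The gene (ENSBTAG00000011839, chromosome 20, 31431008 to 31456871) stood at an FPKM of 11.9, 14.9 and 159 in calves 1 to 3, and of 16.9, 21.0 and 70.8 in bulls 1 to 3. Calf 3 was highest and bull 3 second, and the other 4 libraries lay close together. The groups overlapped, and with means of 61.8 ± 83.8 in calves and 36.2 ± 30.0 in bulls (SD, n = 3 each) the spread within each group exceeded the difference. The log2 fold change, bull minus calf, was -0.07 with a 95% confidence interval of -2.74 to 2.60 (SE 1.09, limma adjusted p = 0.963). Without calf 3, each bull lay above calves 1 and 2, the log2 fold change was 1.09 with an interval of -0.33 to 2.51, and the limma adjusted p was 0.133. The mean of the bulls was 2.71-fold that of calves 1 and 2, and without bull 3 as well the log2 fold change was 0.47 (limma adjusted p = 0.0638).

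IDI1 interconverts the isoprenoid units isopentenyl diphosphate and dimethylallyl diphosphate. The gene (ENSBTAG00000004075, chromosome 13, 46325275 to 46328399) stood at an FPKM of 12.0, 15.4 and 77.8 in calves 1 to 3 and of 12.2, 12.8 and 27.3 in bulls 1 to 3. Calf 3 was again highest and bull 3 second, and bulls 1 and 2 fell between calves 1 and 2. The means of 35.1 ± 37.1 in calves and 17.4 ± 8.59 in bulls (SD, n = 3 each) did not differ beyond their spread, with a log2 fold change of -0.57 (95% confidence interval -2.39 to 1.25, SE 0.74, limma adjusted p = 0.544). In the fit without calf 3 it was 0.24 with an interval of -0.62 to 1.10 (limma adjusted p = 0.554), and the groups still overlapped.

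FDPS makes geranyl and farnesyl diphosphate, the latter at the branch point toward sterols and other isoprenoids. The gene (ENSBTAG00000003948, chromosome 3, 15311058 to 15320377) stood at an FPKM of 15.6, 21.0 and 37.0 in calves 1 to 3 and of 62.9, 82.8 and 102 in bulls 1 to 3. It was the one gene of the 7 whose groups did not overlap with all 6 libraries, every bull above every calf. Among all genes tested, 67.4% had groups that did not overlap and 46.1% had every bull above every calf. The mean rose 3.36-fold, from 24.5 ± 11.2 in calves to 82.4 ± 19.3 in bulls (SD, n = 3 each). The log2 fold change was 1.77 with a 95% confidence interval of 0.90 to 2.64 (SE 0.35, limma adjusted p = 0.00655), and an exact two-sided permutation test gave p = 0.1, the smallest that 3 against 3 allows. In the fit without calf 3 its size was 2.102 (SE 0.23, limma adjusted p = 0.000285). FDPS kept its call under all 15 alternatives run, with a log2 fold change between 1.001, under quantile normalisation, and 2.102, without calf 3.

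SQLE oxidises squalene to its epoxide, a rate-limiting step of the sterol part of the pathway. The gene (ENSBTAG00000005498, chromosome 14, 15144664 to 15167777) stood at an FPKM of 9.73, 11.2 and 93.5 in calves 1 to 3 and of 20.2, 19.7 and 34.9 in bulls 1 to 3. Each bull lay above calves 1 and 2 and below calf 3. With means of 38.1 ± 47.9 in calves and 24.9 ± 8.64 in bulls (SD, n = 3 each), the log2 fold change was 0.11 with a 95% confidence interval of -2.01 to 2.24 (limma adjusted p = 0.921). Without calf 3 SQLE rose 2.38-fold on the means, with a log2 fold change of 1.13 (SE 0.26, interval 0.49 to 1.77, limma adjusted p = 0.00784). That call was lost without calf 3 under quantile normalisation, where the log2 fold change was 0.52 (limma adjusted p = 0.0980), and under median-ratio scaling, where it was 0.88 and under the fold limit. Without calf 3 and bull 3 together it was 0.87 (limma adjusted p = 0.00338), again under the fold limit.

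LSS folds the epoxide of squalene into lanosterol, the first sterol of the pathway. The gene (ENSBTAG00000018936, chromosome 1, 145889102 to 145919613) stood at an FPKM of 5.72, 7.56 and 27.7 in calves 1 to 3 and of 3.69, 2.84 and 9.99 in bulls 1 to 3. Bulls 1 and 2 were the lowest libraries, and bull 3 lay above calves 1 and 2, so the groups overlapped with and without calf 3. The means were 13.7 ± 12.2 in calves and 5.51 ± 3.90 in bulls (SD, n = 3 each). The log2 fold change was -1.02 with a 95% confidence interval of -2.66 to 0.62 (limma adjusted p = 0.240). Without calf 3 it was -0.38 with an interval of -1.48 to 0.72 (limma adjusted p = 0.470). Without calf 3 and bull 3 together it was -0.84 with an interval of -1.37 to -0.31 (limma adjusted p = 0.0166), under the fold limit.

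CYP51A1 removes a methyl group from lanosterol and is the one cytochrome P450 of the 7. The gene (ENSBTAG00000001992, chromosome 4, 9459764 to 9480836) stood at an FPKM of 10.2, 10.3 and 108 in calves 1 to 3 and of 60.6, 57.0 and 83.1 in bulls 1 to 3. The bulls formed a tight group far above calves 1 and 2, and calf 3 exceeded them all. With all 6 libraries the means of 42.8 ± 56.3 in calves and 66.9 ± 14.2 in bulls (SD, n = 3 each) did not differ beyond their spread, with a log2 fold change of 1.48 (95% confidence interval -0.76 to 3.71, limma adjusted p = 0.215). Without calf 3, CYP51A1 rose the most of the 7, 6.50-fold on the means, with a log2 fold change of 2.57 (SE 0.18, interval 2.14 to 3.00, limma adjusted p = 4.44e-05). Without bull 3 as well, the log2 fold change was 2.40 (limma adjusted p = 0.000113), and without calf 3 under quantile normalisation it was 1.90 (limma adjusted p = 0.000223).

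DHCR7 reduces 7-dehydrocholesterol to cholesterol in the final step of one branch of the pathway. The gene (ENSBTAG00000016465, chromosome 29, 48285096 to 48304702) stood at an FPKM of 5.72, 6.87 and 23.3 in calves 1 to 3 and of 2.41, 4.81 and 17.9 in bulls 1 to 3. Calf 3 and bull 3 were the highest of their groups, and the bulls spread over a wider range of ratios than for any other of the 7 genes. The means were 12.0 ± 9.84 in calves and 8.37 ± 8.33 in bulls (SD, n = 3 each), and the log2 fold change was -0.59 with a 95% confidence interval of -2.50 to 1.31 (limma adjusted p = 0.546). Without calf 3 it was -0.01 with an interval of -1.67 to 1.64 (limma adjusted p = 0.987).

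Without calf 3, every bull lay above calves 1 and 2 for HMGCS1, FDPS, SQLE and CYP51A1, 4 of the 7, where 53.5% of all genes tested showed this order. No gene of the 7 had every bull below calves 1 and 2, an order seen in 30.9% of all genes tested.

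The 7 enzymes also changed place among themselves. FDPS had the highest FPKM of the 7 in every library but calf 3, where it was 5th and HMGCS1 was first. CYP51A1 was 2nd in all 3 bulls and in calf 3, but 4th in calf 1 and 5th in calf 2. LSS and DHCR7 held the last 2 places in all 6 libraries. The summed FPKM of the 7 was 70.8, 87.2 and 526 in calves 1 to 3 and 179, 201 and 346 in bulls 1 to 3. Of that sum, FDPS and CYP51A1 took 35.2% and 33.9% in bull 1, 41.2% and 28.4% in bull 2, and 29.4% and 24.1% in bull 3. In calves 1 and 2, FDPS took 21.9% and 24.0% and CYP51A1 14.5% and 11.8%. In calf 3, FDPS took 7.05% and CYP51A1 20.5%. IDI1 went the other way, with 16.9% and 17.7% in calves 1 and 2 and between 6.37% and 7.91% in the bulls.

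**Figure D2:**
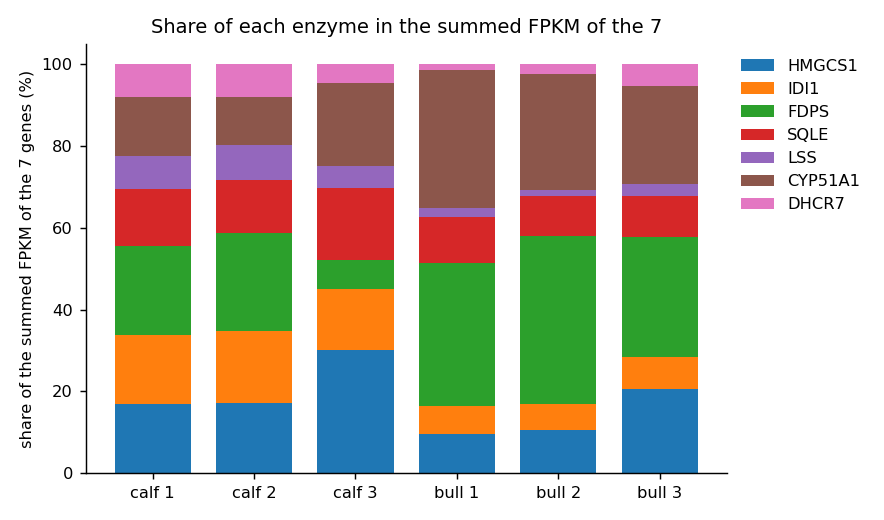
Share (percent) of the summed FPKM of the 7 enzymes that each enzyme took in each library, as stacked bars of 1 library each. FDPS and CYP51A1 together fill more of each bull's bar than of any calf's bar, and in calf 3 HMGCS1 is the widest band at 30.2%.

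Ratios of enzymes within a library, which do not change when a library is scaled by a constant, showed the same shift. The FPKM of FDPS was 1.298, 1.36 and 0.476 times that of IDI1 in calves 1 to 3 and 5.17, 6.47 and 3.71 times in bulls 1 to 3. The ratio of CYP51A1 to LSS was 1.79, 1.37 and 3.89 in calves 1 to 3 and 16.4, 20.0 and 8.32 in bulls 1 to 3. Both ratios were higher in each bull than in each calf, calf 3 included. The other ratios computed, of FDPS to LSS, FDPS to DHCR7 and CYP51A1 to DHCR7, were also higher in each bull than in each calf. For CYP51A1 to DHCR7 the margin was slight, at 4.65 in bull 3 against 4.62 in calf 3. The 2 pairs printed in full were chosen after the values had been seen, and none of these ratios carries a test.

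The level of calf 3 differed greatly from gene to gene. Its FPKM was 11.8 times the mean of calves 1 and 2 for HMGCS1, 10.5 times for CYP51A1, 8.92 times for SQLE and 5.68 times for IDI1. It was 4.17 times that mean for LSS, 3.70 times for DHCR7 and 2.03 times for FDPS. For 6 of the 7, all but FDPS, calf 3 was at least 2-fold above both other calves and was also the highest of the 6 libraries. Among all genes tested, 20.7% met the first condition and 21.9% the second. Markers of oligodendrocytes, astrocytes and neurons were highest in calf 3 as well, 9 of 9, 7 of 7 and 7 of 7, and their part in the levels of these enzymes was not tested.

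Bull 3 was the highest bull for all 7 enzymes, against 36.4% of all genes tested. It was at least 2-fold above both other bulls for HMGCS1, IDI1, LSS and DHCR7, 4 of 7, against 1.71% of all genes tested. The FPKM of bull 3 over the mean of bulls 1 and 2 was 4.96 for DHCR7, 3.74 for HMGCS1, 3.06 for LSS and 2.19 for IDI1. It was smaller for SQLE at 1.75, CYP51A1 at 1.41 and FDPS at 1.39. The DHCR7 gene value includes entries named as antisense, and for its transcript DHCR7-201 alone the ratio was 8.36. Bull 3 was likewise highest of the bulls for STAR, which carries cholesterol into mitochondria, at 266 against 73.7 and 30.0. The same held for CYP11A1, which cleaves the cholesterol side chain, at 34.7 against 3.09 and 4.24. Of 8 genes that turn cholesterol into steroids and oxysterols, only these 2 were at least 2-fold above both other bulls in bull 3. Leydig cell markers, a list that includes STAR and CYP11A1, were highest in bull 3 among the bulls in 5 of 6 genes. Their summed FPKM was 2159, 1457 and 2602 in bulls 1 to 3, and their part in the levels of the 7 enzymes was not tested.

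**Figure D3:**
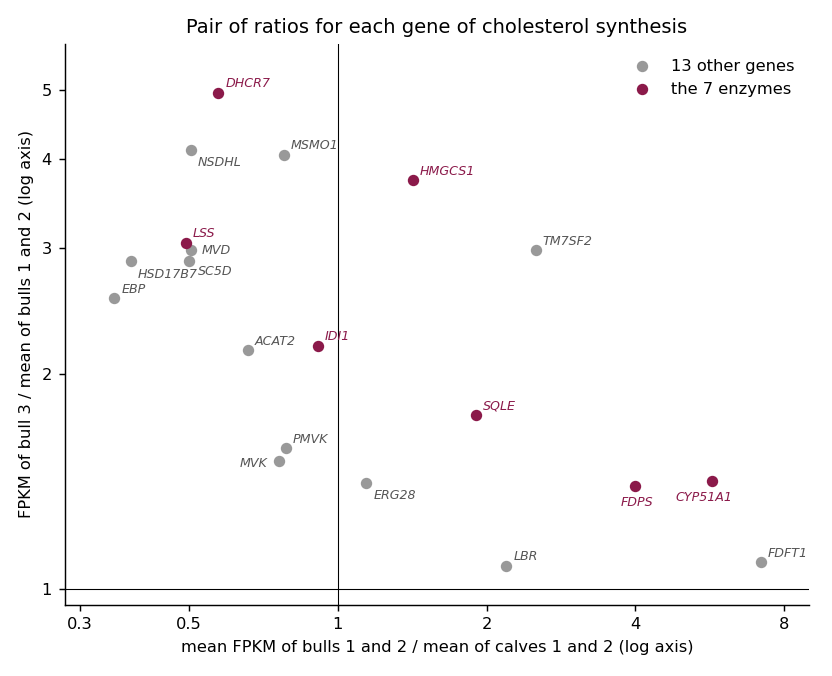
For each of 20 genes of cholesterol synthesis, the mean FPKM of bulls 1 and 2 over that of calves 1 and 2 (x axis, log) against the FPKM of bull 3 over the mean of bulls 1 and 2 (y axis, log), with the 7 enzymes in dark red and 13 other genes in grey. All 20 points lie above 1 on the y axis, and DHCR7 is highest at 4.96. The DHCR7 gene value includes entries named as antisense, and for its transcript DHCR7-201 alone the x and y ratios were 0.29 and 8.36. The axes share bulls 1 and 2.

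In a list of 13 other enzymes and cofactors of the pathway, some genes were higher in bulls and others were not. With all 6 libraries 2 of the 13 were called higher and 0 lower, FDFT1 and LBR, where 35.7% and 9.61% of all genes were. Without calf 3, 3 were called higher, FDFT1, TM7SF2 and LBR, and 0 lower, where 37.9% and 13.6% of all genes were. The median log2 fold change of the 13 was -0.39, and -0.12 without calf 3. Bull 3 was the highest bull in 13 of 13, and calf 3 was at least 2-fold above both other calves in 8 of 13. Under quantile normalisation of all 6 libraries, 0 were higher and 3 lower (ACAT2, HSD17B7 and EBP), against 21.1% and 25.1% of all genes.

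FDFT1, squalene synthase, the step after FDPS, had an FPKM of 15.4, 12.6 and 73.4 in calves 1 to 3 and of 106, 94.4 and 109 in bulls 1 to 3. Every bull exceeded every calf, with a log2 fold change of 2.03 (SE 0.65, limma adjusted p = 0.0388), and of 2.80 without calf 3 (limma adjusted p = 8.27e-06). With calf 3 kept, its call was lost when any 1 of the other 5 libraries was left out, at log2 fold changes of 1.58 to 2.09 and limma adjusted p of 0.0983 to 0.112. That call was also lost with no filter, under quantile normalisation and under median-ratio scaling, and FDFT1 was called in 7 of the 15 alternatives. LBR, a sterol reductase that also binds the nuclear lamina, rose by a log2 fold change of 1.44 (limma adjusted p = 0.00717), and by 1.11 without calf 3 (limma adjusted p = 0.000133), its lowest library at 6.94. It was not called under quantile normalisation (0.76), nor without calf 3 under quantile normalisation (0.41) or median-ratio scaling (0.86).

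**Figure D4:**
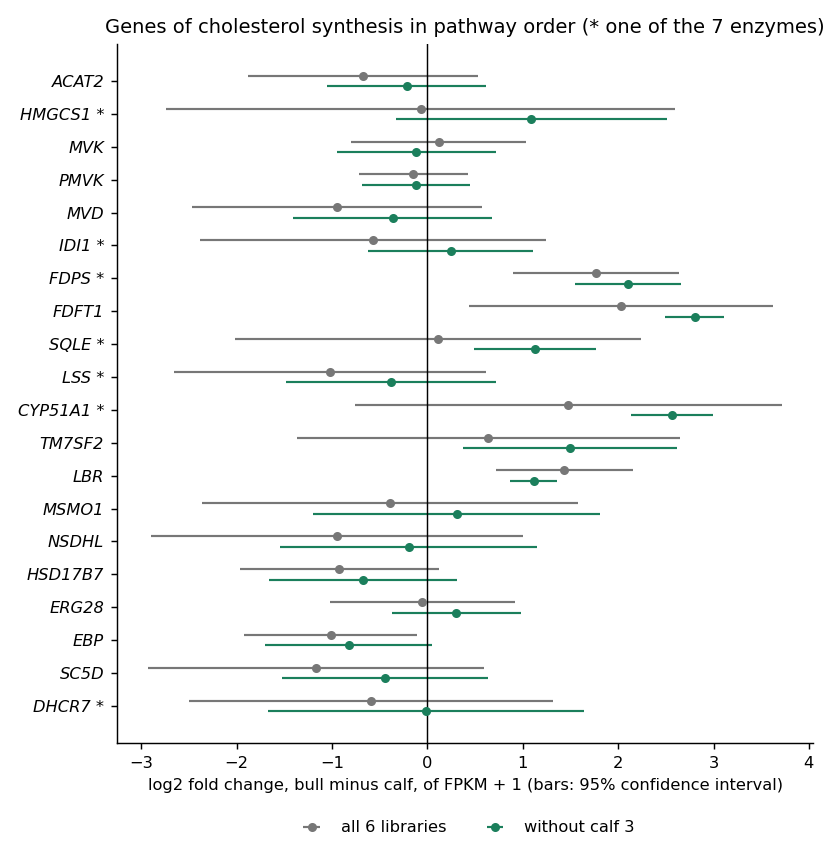
Log2 fold change, bull minus calf, of FPKM + 1 for 20 genes in pathway order from top to bottom, with all 6 libraries in grey and without calf 3 in green; points are limma estimates, bars their 95% confidence intervals, and asterisks mark the 7 enzymes. FDPS lies to the right of 0 in both fits, and the intervals of SQLE and CYP51A1 clear 0 in the fit without calf 3.

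Among these 20 genes, those whose mean in bulls 1 and 2 was at least 2-fold that of calves 1 and 2 were FDPS, CYP51A1, FDFT1, TM7SF2 and LBR. For these 5 the ratio of bull 3 to the other bulls ran from 1.08 to 2.98 with a median of 1.39. For the other 15 of the 20, HMGCS1, IDI1, SQLE, LSS and DHCR7 among them, it ran from 1.41 to 4.96 with a median of 2.88. Because both quantities contain bulls 1 and 2, they are given as a description with no test.

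At the level of transcripts, the 7 genes had 17 entries, of which 10 passed the filter on low values. Of these 10, 3 were called higher in bulls, against 34.8% of 23212 transcripts tested, and without calf 3 5 were called higher, against 36.1%. TCONS_00274896, an entry of CYP51A1 counted in both, passed that filter only through the 3 bulls. IDI1 and SQLE had 1 entry each, and at least 99.1% of HMGCS1 came from 1 of its entries. Both entries of FDPS carried its rise. FDPS-201 (ENSBTAT00000014472, 15311058 to 15319968) had an FPKM of 4.02, 5.28 and 4.79 in calves 1 to 3 and of 16.9, 29.4 and 40.3 in bulls 1 to 3, with no overlap between the groups and with calf 3 between the other calves. Its log2 fold change was 2.31 (SE 0.33, limma adjusted p = 0.00167), and 2.33 without calf 3 (limma adjusted p = 0.00304). FDPS-202 (ENSBTAT00000009272, 15311058 to 15320377) had an FPKM of 11.5, 15.7 and 32.3 in calves 1 to 3 and of 46.0, 53.4 and 61.3 in bulls 1 to 3. Its log2 fold change was 1.51 (SE 0.38, limma adjusted p = 0.0173), and 1.91 without calf 3 (limma adjusted p = 0.000504). It was not called under quantile normalisation, where it was 0.74, or, at 1.41, 1.503 and 1.41, without calf 2, bull 2 or bull 3. FDPS-201 made up 25.9%, 25.2% and 12.9% of the FDPS value in calves 1 to 3 and 26.8%, 35.5% and 39.7% in bulls 1 to 3.

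CYP51A1-201 (ENSBTAT00000002582, 9459764 to 9476713) carried nearly the whole CYP51A1 value, with a log2 fold change of 1.45 (limma adjusted p = 0.231) and of 2.54 without calf 3 (limma adjusted p = 0.000213). A second entry, TCONS_00274896, which was assembled from the reads and spans 9475915 to 9480836 at the other end of the gene, was listed at 0, 0.0313 and 0 in calves 1 to 3 and at 1.68, 1.53 and 1.503 in bulls 1 to 3. The groups did not overlap, and calf 3 was at 0 although the gene itself was highest there. The entry passed the filter only through the 3 bulls, which favoured the lack of overlap and the call, so neither counts as support. Its log2 fold change was 1.35 (SE 0.09, limma adjusted p = 7.04e-05), and 1.34 without calf 3 (limma adjusted p = 0.000331). Under quantile normalisation it was 0.46 and not called. It made up between 1.81% and 2.78% of the gene's value in the bulls. For LSS, LSS-201 held between 74.2% and 77.5% of the gene's value in all 6 libraries, with no shift between calves and bulls.

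The DHCR7 value was a mixture in bulls 2 and 3. DHCR7-201 (ENSBTAT00000021892, 48285096 to 48304702), the main annotated transcript, had an FPKM of 5.70, 6.84 and 23.0 in calves 1 to 3 and of 2.35, 1.29 and 15.2 in bulls 1 to 3. DHCR7-AS1, an entry named as antisense at 48288625 to 48292294, was listed at 0 in the 3 calves and in bull 1, and at 2.55 and 2.63 in bulls 2 and 3. It made up 53.0% of the gene's value in bull 2 and 14.7% in bull 3, while DHCR7-201 made up 26.8% in bull 2. The entries DHCR7-AS2 and TCONS_00256323 made up 11.8% and 8.44% in bull 2. Bull 2 therefore exceeded bull 1 in the gene value and fell below it in DHCR7-201. DHCR7-201 alone had a log2 fold change of -1.12 (limma adjusted p = 0.322), and of -0.54 without calf 3 (limma adjusted p = 0.603). Without calf 3 and bull 3 together it was -1.39 (limma adjusted p = 0.0126). The library kit marks strand, but whether the values were computed with strand is not given in the sources used here, so reads of the gene and of its antisense entries may not be separated.

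**Figure D5:**
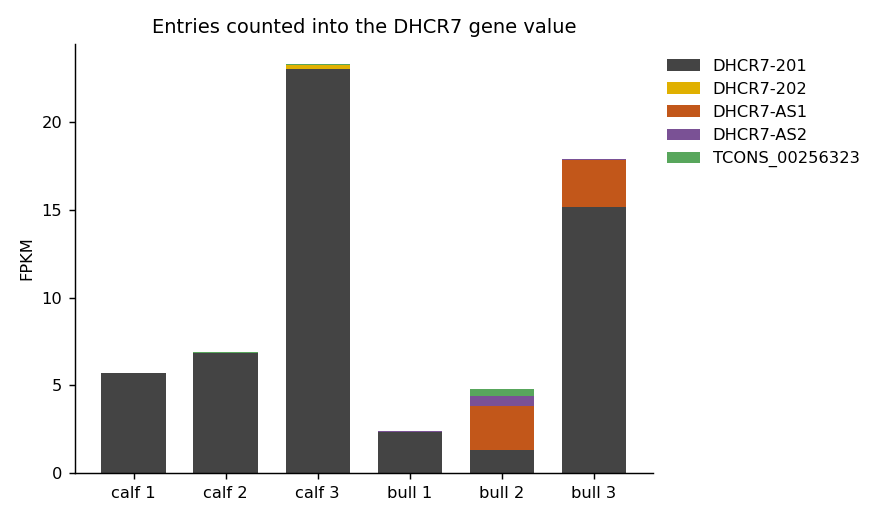
FPKM of the transcript entries that add up to the DHCR7 gene value, as stacked bars with 1 bar per library. The annotated DHCR7-201 fills almost all of the bars of the calves and bull 1, while DHCR7-AS1 takes 53.0% of the bar of bull 2 and 14.7% of that of bull 3.

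Of 11 genes that sense sterol and activate SREBP, 2 were called higher in bulls, SCAP and RNF139, and 1 lower, MBTPS2, against 35.7% and 9.61% of all genes. Without calf 3, 2 were higher and 2 lower, against 37.9% and 13.6%. SREBF2, which encodes SREBP2 itself, had an FPKM of 5.39, 6.13 and 31.7 in calves 1 to 3 and of 7.23, 6.63 and 8.80 in bulls 1 to 3. Apart from calf 3 its libraries lay within a narrow range, with a log2 fold change of -0.42 (limma adjusted p = 0.603) and of 0.33 without calf 3 (limma adjusted p = 0.0988). INSIG1, the sterol-responsive protein that holds SREBP in the endoplasmic reticulum, had an FPKM of 10.5, 9.45 and 25.2 in calves 1 to 3 and of 13.7, 13.7 and 15.5 in bulls 1 to 3, and its log2 fold change was 0.06 (limma adjusted p = 0.902), and 0.48 without calf 3 (limma adjusted p = 0.0112), under the fold limit. SCAP, which escorts SREBP out of that compartment, rose by a log2 fold change of 1.09 (limma adjusted p = 0.00202), by 1.06 without calf 3 (limma adjusted p = 0.000920), and by 0.51 under quantile normalisation, below the fold limit. RNF139, a ubiquitin ligase of that membrane, rose by 2.19 (limma adjusted p = 0.000184), and by 2.04 without calf 3 (limma adjusted p = 1.95e-05). MBTPS2, a protease that cuts SREBP, fell by 1.07 (limma adjusted p = 0.00325), just past the limit. Without calf 3 the fall was 0.99, and without bull 1 it was 0.998, both short of a call.

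All 12 genes listed for uptake and intracellular transport were found and tested. With all libraries 0 were called higher and 4 lower, LRP1, NPC2, LIPA and STARD3, against 35.7% and 9.61% of all genes. Without calf 3, 2 were higher, VLDLR and NPC1, and 3 lower, LRP1, NPC2 and LIPA, against 37.9% and 13.6%. SCARB1, the HDL receptor that supplies cholesterol esters to steroid-making cells, had an FPKM of 14.4, 24.7 and 6.36 in calves 1 to 3 and of 12.6, 5.50 and 32.9 in bulls 1 to 3, with calf 3 low and bull 3 high, and a log2 fold change of 0.02 (limma adjusted p = 0.987), and of -0.46 without calf 3 (limma adjusted p = 0.549). LRP1, a large lipoprotein receptor, fell by 1.95 on the log2 scale (limma adjusted p = 0.000255), and by 1.82 without calf 3 (limma adjusted p = 4.28e-05). NPC2, which moves cholesterol out of lysosomes, fell by 1.78 (limma adjusted p = 0.0234), and by 2.36 without calf 3 (limma adjusted p = 5.08e-06). The call of NPC2 was lost when any 1 of the libraries but calf 3 was left out, with falls of 1.46 to 1.80 and limma adjusted p of 0.0661 to 0.0782.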

How the data were processed

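Total RNA of 6 testis samples was depleted of ribosomal RNA and sequenced from strand-marked libraries, 1 per animal. According to the Methods, the authors used Bowtie2 to discard ribosomal reads, TopHat2 for mapping and StringTie for transcript assembly. The deposited values are FPKM per gene and per transcript, with no counts, and the tool that made these gene values is not given in the sources used here, which name Cuffdiff and Ballgown for circRNAs. Summed FPKM per library ran from 587066 (calf 3) to 1098715 (calf 2). At most 3.60% of low genes shared a commonest ratio to calf 1, so counts could not be recovered. The Methods name assembly UMD3.1.1, but the positions of the 7 genes in the tables overlapped the loci of the same symbols on an ARS-UCD assembly, and positions are printed as the tables give them. A gene's FPKM equalled the sum of its entries for the 7 genes.

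Values were transformed to log2(FPKM + 1), and features that reached an FPKM of 1 in 3 or more of the 6 libraries were kept (18115 genes, 23212 transcripts). The 2 groups were compared with limma 3.58.1 in R 4.3.3, with an empirical Bayes trend and Benjamini-Hochberg adjustment over all features tested, and calls required an adjusted p under 0.05 with a log2 fold change no smaller than 1 in either direction. The p-values measure the spread between the animals sampled. The procedure was tested on simulated data in which 200 genes or 200 transcripts were given a log2 fold change of 2. With all libraries 58.5% of these genes and 47.5% of these transcripts were recovered, and without calf 3 89% and 65%. Only those 200 features differed in the simulation, and its noise was normal and independent, whereas 45.3% of genes were called in the data. The rates in the data may thus differ from these. A gene that was not called may therefore still differ. Single values were also compared by an exact permutation test over 20 labelings, whose smallest p is 0.1. The 15 alternatives were a pseudocount of 0.1, no filter, quantile normalisation, median-ratio scaling, array weights, a replicate block, leaving out each library, and 3 added after the data had been seen (without calf 3 and bull 3, and without calf 3 under each of 2 scalings). The 7 genes, the pathway and marker lists and the genes named were chosen with earlier results of these data known. Named genes were the 7 enzymes, the control points SREBF2, INSIG1, SCARB1 and STAR, up to 2 called genes with the highest and 2 with the lowest log2 fold change in each other pathway list, the 5 genes closest in profile, and markers set beside a result. CYP11A1, other called genes and the rest of the 20 synthesis genes were named after their values had been seen. Some genes of the pathway are not reported here and enter no list count or figure. CH25H was not matched, and CYP17A1 had 3 entries and was not used. Figures were drawn with matplotlib 3.10.9 in Python 3.11.15.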

Additional observations from a re-analysis of the deposited data

How the results depend on the processing

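Of the 7 enzymes, 1 was called with all libraries, 3 with array weights, 2 with the replicate number as a block, 1 to 3 when each library was left out in turn (3 without calf 3), 2 without calf 3 and bull 3 together, and 2 without calf 3 under quantile normalisation or under median-ratio scaling. Of their transcript entries, 3 were called with all libraries, 1 under quantile normalisation, 5 with array weights, 2 to 5 when each library was left out (5 without calf 3), and 5 without calf 3 and bull 3 together. Genes called over the whole table ranged from 7318 to 9325 of 18115 when each library was left out, and the share called was 51.5% with array weights, 44.9% with the block and 51.3% without calf 3 and bull 3.

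Some log2 fold changes near 0 changed sign. HMGCS1 (-0.07) was 0.99 with array weights, 0.47 without calf 3 and bull 3, 0.43 and 0.84 without calf 3 under quantile normalisation and median-ratio scaling, and -0.72 to 1.09 when each library was left out. IDI1 (-0.57) was 0.17 with array weights and -1.06 to 0.24 when each library was left out. SQLE (0.11) was -0.55 under quantile normalisation, -0.028 under median-ratio scaling and -0.44 to 1.13 when each library was left out. SREBF2 (-0.42) was 0.28 with array weights, 0.23 without calf 3 and bull 3, 0.11 without calf 3 under median-ratio scaling, and -0.84 to 0.33 when each library was left out. INSIG1 (0.06) was -0.51 under quantile normalisation, -0.080 under median-ratio scaling, -0.087 without calf 3 under quantile normalisation, and -0.18 to 0.48 when each library was left out. SCARB1 (0.02) was -0.61 under quantile normalisation, -0.12 under median-ratio scaling, -0.53 with array weights, -1.08 without calf 3 and bull 3, -1.14 and -0.70 without calf 3 under quantile normalisation and median-ratio scaling, and -0.60 to 0.59 when each library was left out. The cause was not tested. Over the fold changes of single genes and transcripts, 391 of the recomputed values kept direction and side of the threshold, 43 lost and 15 gained a call and 31 changed sign. Of the counts of genes called in the other lists, 29 moved by over 1.5 times and 61 did not, whichever genes they counted.

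The replicate numbers name different animals, and deviations of same-numbered calf and bull libraries correlated at 0.0277, 0.0246 and 0.0341, so the numbers do not pair the samples, although each library correlated best with its own number. With the replicate number as a block, LSS was called lower at a log2 fold change of -1.02 (limma adjusted p = 0.0356) and 8128 genes were called against 8215.

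With 3 animals a group and no counts, a difference of less than about the confidence intervals given could not be seen, and differences at low FPKM are understated by the added 1. Calf 3 cannot be replaced, so results without it rest on 2 calves.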

Other observations

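Of 13 genes of the branches that leave the pathway at farnesyl diphosphate, 1 was called higher in bulls and 3 lower, with and without calf 3. Of all genes tested, 35.7% were called higher and 9.61% lower, and without calf 3 37.9% and 13.6%. FNTA, a subunit of protein farnesyl transferase, rose by a log2 fold change of 2.497 (limma adjusted p = 0.00183), and 2.90 without calf 3 (limma adjusted p = 9.48e-06). COQ2, which attaches the side chain of ubiquinone, fell by 1.61 (limma adjusted p = 0.00795), and by 1.96 without calf 3 (limma adjusted p = 0.000141). RABGGTA, a subunit of the transferase that prenylates Rab proteins, fell by 1.51 (limma adjusted p = 0.00367), and by 1.76 without calf 3 (limma adjusted p = 0.000120). These 3 kept their calls under all 15 alternatives.

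Of 11 genes of efflux and storage, 8 were tested, and 2 were called higher and 1 lower, beside 35.7% and 9.61% of all genes. Without calf 3, 3 were higher and 3 lower, beside 37.9% and 13.6%. LIPE, hormone-sensitive lipase, which frees cholesterol from its esters, rose by a log2 fold change of 3.36 (limma adjusted p = 0.0134), and 4.32 without calf 3 (limma adjusted p = 1.84e-06). It missed the threshold without bull 1 (3.37, limma adjusted p = 0.0503) or without bull 3 (3.31, limma adjusted p = 0.0525). ABCG8, known as a sterol exporter of liver and intestine, rose by 2.03 (limma adjusted p = 0.00111), and by 1.93 without calf 3 (limma adjusted p = 0.00114). LCAT, which esterifies cholesterol in plasma, fell by 1.92 (limma adjusted p = 0.0335), and by 1.23 without calf 3 (limma adjusted p = 0.000985), a change of over 1.5 times. Its call was lost without any 1 of the bulls, where the fall was 1.84 to 2.04. Of 9 genes that turn cholesterol into steroids and oxysterols, 8 were found and 7 tested. FDX1, which passes electrons to CYP11A1, was the 1 gene called, higher by a log2 fold change of 1.12 (limma adjusted p = 0.0110), and 1.03 without calf 3 (limma adjusted p = 0.00990), where 1 gene was higher and 1 lower. The shares of all genes called are those given above. Without bull 3 the rise of FDX1 was 0.86, and under quantile normalisation 0.42, both short of a call. Its call was also lost under median-ratio scaling, without calf 3 and bull 3 together, and without calf 3 under either scaling. FDX1 was called in 9 of the 15 alternatives. STAR had an FPKM of 15.6, 24.2 and 0.328 in calves 1 to 3, and with the bull values given above its log2 fold change was 3.37 (limma adjusted p = 0.0728), and 2.06 without calf 3 (limma adjusted p = 0.0642).

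The mean profile of the 7 enzymes, each centred on its own mean of log2(FPKM + 1), was -1.01, -0.75 and 1.53 in calves 1 to 3 and -0.39, -0.23 and 0.86 in bulls 1 to 3. SQLE lay closest to that mean, with a mean absolute difference of 0.219 over the 6 libraries, and FDPS farthest, with 0.806. Among 13612 genes with a symbol outside the lists, the 5 closest were MYRIP at 0.0881, MMP24 at 0.146, SBK1 at 0.180, RAB26 at 0.205 and AMPH at 0.209. The 6 points share 2 libraries, calf 3 and bull 3, that set the shape of the profile.

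Among the other marker lists, the 9 spermatocyte markers summed to 434, 502 and 441 FPKM in bulls 1 to 3 and to 20.3, 26.9 and 3.71 in calves 1 to 3. The spermatogonia markers summed to between 281 and 297 in the bulls and to 107, 126 and 284 in calves 1 to 3. Of these 8 markers, calf 3 was the highest of all libraries for 4 and the lowest for 3, and 1 was listed at 0 there. The peritubular myoid markers summed to between 60.3 and 69.9 in the bulls and to 35.1, 47.2 and 14.7 in the calves. The macrophage markers summed to between 124 and 195 in the bulls and to 50.5, 32.3 and 58.9 in the calves.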
